A study of Mus musculus with 6 samples.

Results

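The mitochondrially encoded genes were taken from the deposited table of a bulk RNA sequencing experiment as the rows placed on chromosome MT whose names begin with mt-. Of 25251 genes in the table, 29 met this rule, and they were grouped by their deposited biotype into 13 protein-coding genes, 2 ribosomal RNA genes and 14 transfer RNA genes. The tissue was subcutaneous tumour of CT26, a colon carcinoma line, grown in wild-type BALB/c mice. The irinotecan group had 3 samples from mice given irinotecan (CPT-11), a prodrug of a topoisomerase I inhibitor, intraperitoneally at 25 mg/kg every 4 days once tumours had reached 100 mm3, and the control group had 3 samples from mice given solvent. The sources used here do not give the age of the mice, how long after the last dose tumours were taken, how RNA was selected for the libraries or whether reads were counted by strand. Nor do the labels tie each sample to its own mouse, so the spread between samples may be technical in part. GEO's design text mentions duplicates, while 3 samples are labelled in each group, and each of the 6 entered the comparisons.

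The mitochondrial genome is a small circle transcribed on both strands into long precursors. Transfer RNA genes sit between most of the other genes, and their excision by RNase P and ELAC2 releases the messenger and ribosomal RNAs. All 13 proteins are subunits of the respiratory chain or of ATP synthase, the ribosomal and transfer RNAs serve the mitochondrial ribosome, and most of the messengers come from the heavy strand. Light-strand transcription gives mt-Nd6 and a minority of the transfer RNAs. Mitochondria hold their own type I topoisomerase, the product of the nuclear gene Top1mt.

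GENCODE M21 lists 37 mitochondrial genes on GRCm38, and the 29 genes of the table have the same positions there. The other 8, the transfer RNA genes mt-Td, mt-Tf, mt-Tg, mt-Ti, mt-Tk, mt-Tq, mt-Ts1 and mt-Tv, were not analysed here. The 4 transfer RNA sequences that follow belong to light-strand genes measured in these tumours. They are GENCODE M21 transcripts printed 5′ to 3′ with the anticodon in capitals. The first pair had the smallest p-values among the mitochondrial genes, and the second pair lies on the same strand without that pattern.
mt-Tp, proline, MT:15356-15422, minus strand: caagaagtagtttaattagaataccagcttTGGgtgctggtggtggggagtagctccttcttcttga
mt-Tc, cysteine, MT:5192-5257, minus strand: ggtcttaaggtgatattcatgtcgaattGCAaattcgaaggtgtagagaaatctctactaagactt
mt-Te, glutamate, MT:14071-14139, minus strand: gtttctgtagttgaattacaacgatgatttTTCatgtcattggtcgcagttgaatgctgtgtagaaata
mt-Ty, tyrosine, MT:5260-5326, minus strand: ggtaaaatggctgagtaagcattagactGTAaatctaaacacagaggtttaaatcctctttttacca

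Part of the mitochondrial genome also exists as a copy in the nucleus. On GRCm38, 7 annotated copies of mitochondrial genes lie side by side on chromosome 1 between 24611535 and 24616197 and, apart from the first bases of the copy of mt-Co1, correspond to MT:6394-11042, which is 4649 bases. The copies of mt-Co2, mt-Atp6, mt-Co3 and mt-Nd4l, and the 876 bases annotated as a copy of mt-Nd4, have the same bases as the mitochondrial gene throughout. The copy of mt-Nd3, Gm28438, differs at 1 base, T3C, counted from 1 at the first base of the mitochondrial gene. The copy of mt-Co1, Gm29216, begins inside the gene and differs at 6 bases, T1056A, C1057T, A1059G, A1060G, C1062A and A1066T, all at its start. Those 2 starts are shown because they hold the only bases that differ within the annotated chromosome 1 copies, with the differing bases in capitals. All 4 sequences are from GENCODE M21 and so carry the C57BL/6J reference, not the BALB/c sequence.
mt-Co1, MT:6381-6440, plus strand: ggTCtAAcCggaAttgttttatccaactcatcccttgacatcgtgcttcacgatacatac
Gm29216, chr1:24616138-24616197, minus strand: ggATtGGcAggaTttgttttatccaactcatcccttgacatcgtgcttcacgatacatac
mt-Nd3, MT:9459-9498, plus strand: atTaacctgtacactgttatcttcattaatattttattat
Gm28438, chr1:24613080-24613119, minus strand: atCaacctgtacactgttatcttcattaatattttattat

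The values in the table are normalized counts, that is, read counts divided by 1 factor per library, and whole reads were recovered from them. The 6 libraries held 13940650 to 15656894 reads. Irinotecan replicate 1 stood apart from the others, with reads for 19040 genes against 20571 to 21426, and values without it are given beside the results that it moves most. The labelled tissue was checked against markers fixed for this purpose. Of 5 epithelial markers, Krt8, Krt18 and Cdh1 had reads in every library, whereas Epcam was at 0 in 5 libraries. Krt19 was at 0 in the 3 irinotecan libraries and at 2.09 to 3.87 normalized counts in controls, so near 0 in both groups. The sum of 7 macrophage markers was 5392 to 11727 normalized counts in irinotecan tumours and 12020 to 14777 in controls. That of 4 endothelial markers was 1278 to 1708 and 1972 to 2309. Irinotecan replicate 1 had the lowest value of both sums. Taken singly, the macrophage markers Cd68, C1qa, C1qb and C1qc and the endothelial marker Kdr overlapped between the groups. The other markers of these lists had every irinotecan library below every control, as did 7.89% of all genes tested below. The sum of the 8 of 9 skeletal muscle markers in the table was 137 to 855 and 23.0 to 338. For 4 of 6 adipocyte markers it was 5.78 to 8.21 and 3.87 to 9.35. Adipoq was at 0 in the irinotecan libraries and at 0.93, 3.14 and 0 in the controls, so near 0 in both groups. The groups also overlapped for 5 red cell markers (573 to 2159 and 420.3 to 2632) and 6 T cell markers (206 to 389 and 219.8 to 307). The 5 fibroblast markers summed to 34070 to 37867 normalized counts in irinotecan tumours and 29828 to 40832 in controls. The part of these other cells in the mitochondrial values was not tested, and in bulk tissue fewer cells of a type and less RNA per cell cannot be told apart.

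Mitochondrial genes took 2.13%, 4.59% and 3.66% of all reads in irinotecan replicates 1, 2 and 3, against 3.67%, 3.73% and 4.22% in control replicates 1, 2 and 3. The means were 3.46% ± 1.24 with irinotecan and 3.87% ± 0.303 in controls (SD, n = 3 each), a difference of -0.414 percentage points that is within the spread of the irinotecan libraries. Irinotecan replicate 1 was the lowest of the 6 and irinotecan replicate 2 the highest, so the groups overlapped completely. Without irinotecan replicate 1 the difference was 0.251 percentage points and without irinotecan replicate 2 it was -0.977, so its direction rests on 1 library. The widest 95% Wilson interval of these shares spanned 0.0210 percentage points, and it covers counting error only, since without molecular identifiers several reads can stem from 1 molecule.

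Reads were also summed by class. Protein-coding genes held nearly all mitochondrial reads, 94.6%, 98.4% and 98.5% in irinotecan replicates 1, 2 and 3 and 98.5% to 98.6% in controls. Their share of all reads was 3.38% ± 1.27 with irinotecan and 3.82% ± 0.296 in controls. Ribosomal RNA genes held 0.108%, 0.0665% and 0.0482% of all reads in the irinotecan libraries and 0.0494%, 0.0534% and 0.0619% in the control libraries, and these ranges overlapped. Transfer RNA genes held 0.00679%, 0.00486% and 0.00537% in the irinotecan libraries, from 1024, 739 and 752 reads. In the control libraries they held 0.00238%, 0.00303% and 0.00351%, from 373, 422 and 539 reads. All 3 irinotecan libraries thus lay above all 3 control libraries for the transfer RNA class. Wilson intervals, which cover counting error only, ran from 0.00453% upward in the irinotecan libraries and up to 0.00382% in the controls. A few genes carried much of this sum. mt-Tp made 537, 249 and 351 reads in the irinotecan libraries and 108, 108 and 182 in the controls. mt-Tc made 136, 61 and 83 against 18, 32 and 20, and mt-Te 56, 299 and 229 against 115, 157 and 169. mt-Ts2 made 129 reads in irinotecan replicate 1 and at most 10 in any other library. The class was not summed without these genes. A sum over chosen genes was given no test. The light-strand genes together, dominated by mt-Nd6, held 0.167% ± 0.0460 with irinotecan and 0.166% ± 0.0330 in controls. Without the strand setting, reads from the opposite strand over these genes, mt-Nd6 included, cannot be told apart. The sum is therefore not known to be light-strand RNA alone.

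**Figure D1:**
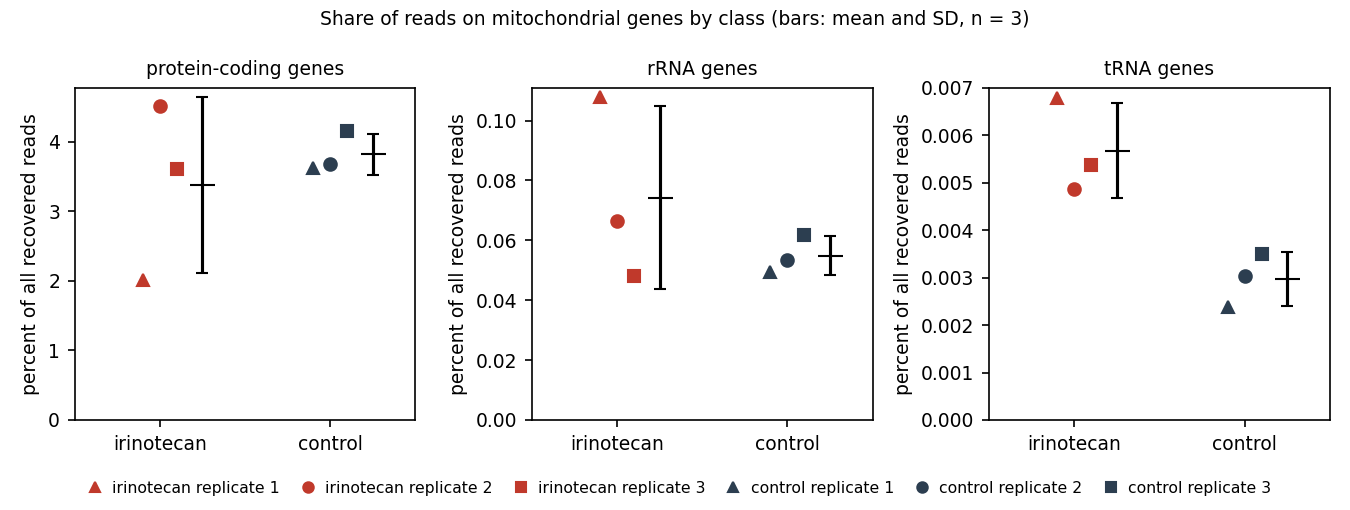
Share of all recovered reads on mitochondrial protein-coding, rRNA and tRNA genes, in percent, for each irinotecan (left) and control (right) library; black bars are the mean and SD of 3 libraries. The irinotecan libraries lie above the controls for tRNA genes (0.00486% to 0.00679% against 0.00238% to 0.00351%) and overlap them for the other classes.

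Read levels differed widely between mitochondrial genes. To compare genes, levels were expressed as RPKM, that is, reads divided by the gene's length in kilobases and by the depth of the library, averaged over the 6 libraries. Of the protein-coding genes, 7 had 1714 to 9205 RPKM. mt-Co1, the core catalytic subunit of cytochrome c oxidase, was first among all 25251 genes at 9205 RPKM, and mt-Cytb, the cytochrome b of complex III, was second at 5676 RPKM. Next among the mitochondrial genes came those of complex I, mt-Nd1 (3855 RPKM), mt-Nd6 (3133 RPKM), mt-Nd2 (2754 RPKM), mt-Nd5 (2483 RPKM) and mt-Nd4 (1714 RPKM). Among all genes they had ranks 5, 7, 8, 9 and 16. Without the strand setting, reads on mt-Nd6 cannot be told apart from those of the opposite strand. Each gene in this order overlapped the next in its range over libraries, although mt-Co1 was above mt-Cytb within each of the 6 libraries. The lowest library of mt-Nd4, at 575 RPKM, still exceeded the highest library of mt-Rnr2, the next gene down, at 529.8 RPKM.

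The other 6 protein-coding genes had 0.540 to 116 RPKM. They were mt-Co2 (116 RPKM) and mt-Co3 (68.3 RPKM), both core subunits of cytochrome c oxidase, mt-Atp6 (94.1 RPKM) and mt-Atp8 (0.540 RPKM), membrane subunits of ATP synthase, and the complex I subunits mt-Nd4l (22.5 RPKM) and mt-Nd3 (4.62 RPKM). These are the 6 protein-coding genes that lie wholly inside the stretch copied on chromosome 1. Counting every run of 100 bases, the words a read of that length could come from, 97.6% to 99.9% of those in mt-Co2, mt-Atp6, mt-Co3, mt-Nd3 and mt-Nd4l also occur in another annotated transcript. For mt-Nd4 and mt-Co1, which lie partly inside, it is 60.8% and 30.8%, for mt-Nd2 it is 3.19%, and for mt-Nd1, mt-Nd5, mt-Nd6, mt-Cytb and both ribosomal RNA genes it is 0%. mt-Atp8 lies inside the stretch but has no annotated copy of its own, and it shares none; it also overlaps mt-Atp6, and reads from the overlap cannot be told apart. The 7 genes at high level and the 6 at low level were thus divided by position in this stretch. The sources used here do not say how reads that match more than 1 place were counted, and its part in these levels was not tested. The level of a gene inside the stretch is therefore uncertain.

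**Figure D2:**
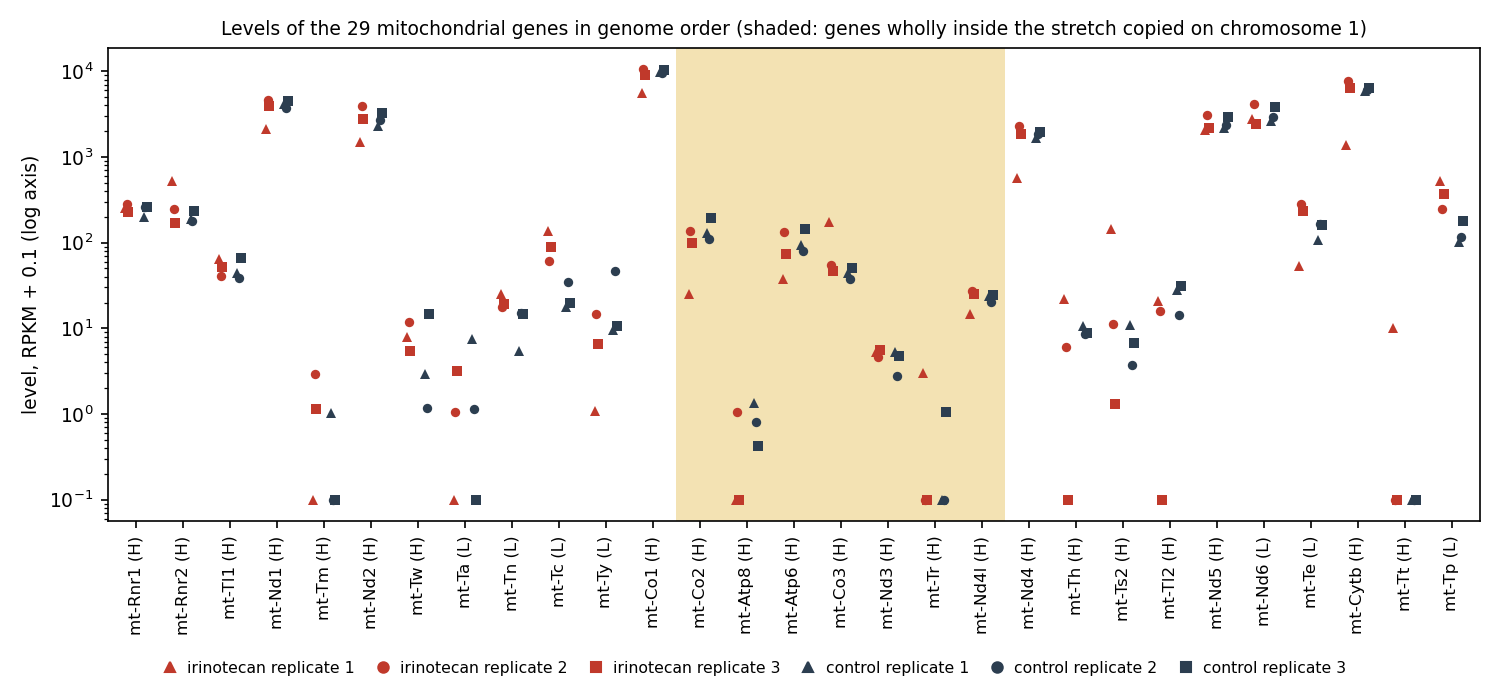
Level of each of the 29 mitochondrial genes, as RPKM + 0.1 on a log axis, in the order in which the genes lie on the genome; H and L mark genes transcribed from the heavy and the light strand, and each point is 1 library, irinotecan left and control right. The 7 protein-coding genes outside or partly outside the shaded copied stretch average 1714 to 9205 RPKM. The 6 protein-coding genes wholly inside it average 0.540 to 116 RPKM.

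Of the ribosomal RNA genes, mt-Rnr2, the large-subunit RNA, averaged 258 RPKM and mt-Rnr1, the small-subunit RNA, 248 RPKM. Of the transfer RNA genes, mt-Tp was the highest at 258 RPKM, with mt-Te (168 RPKM), mt-Tc (59.9 RPKM) and mt-Tl1 (50.9 RPKM) next. The other 4 that passed the filter for testing, a mean normalized count of at least 10, averaged 14.7 to 29.7 RPKM. How RNA was selected is not given, so RPKM may not give the relative amounts of ribosomal, transfer and messenger RNA. Transfer RNA genes are 59 to 75 bases long, so their reads may come from longer precursors as well as from mature molecules, and reads on neighbouring genes of the other strand cannot be told apart without the strand setting.

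Expression in irinotecan tumours was compared with control tumours by limma on log2(normalized count + 1) for the 14639 genes that passed the filter, which understates the change of genes at low level. Of the 29 mitochondrial genes 22 passed, namely 12 protein-coding genes, both ribosomal RNA genes and 8 transfer RNA genes. At an adjusted p under 0.05, limma called 0 of the 14639 genes higher and 0 lower (0% each), and so 0 of the 22. At an unadjusted p under 0.05, limma had 393 genes higher (2.68%) and 451 lower (3.08%), among them 2 mitochondrial genes, both higher. edgeR on the recovered reads also called 0 genes in either direction. DESeq2 on the same reads called 28 genes higher (0.193%) and 18 lower (0.124%) of 14474, and the same 2 mitochondrial genes, mt-Tp and mt-Tc, were among the higher ones.

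mt-Tp, which encodes the proline transfer RNA, had 551, 239.8 and 356 normalized counts in the 3 irinotecan libraries, in replicate order, and 101, 113 and 176 in the 3 control libraries. The groups did not overlap, and the lowest irinotecan library was above the highest control. The mean was 382 ± 157 with irinotecan and 130.0 ± 40.4 in controls, a ratio of 2.94, and the log2 fold change was 1.51 (SE 0.333, 95% interval 0.75 to 2.27) with an adjusted p of 0.662 by limma. DESeq2 gave 1.56 with an adjusted p of 0.00526. In the authors' deposited table mt-Tp has an adjusted p of 0.00508, and 0.2% of the genes with a deposited adjusted p under 1 are at an adjusted p under 0.05 and higher. The DESeq2 run and that table rest on the same reads, so neither is independent of the other.

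mt-Tc, the cysteine transfer RNA gene, lies far from mt-Tp on the circle, in a cluster of light-strand transfer RNA genes between mt-Nd2 and mt-Co1. It had 139.6, 58.8 and 84.1 normalized counts in the irinotecan libraries and 16.8, 33.5 and 19.4 in the controls. Again the groups did not overlap. The mean was 94.2 ± 41.4 with irinotecan and 23.2 ± 8.96 in controls, a ratio of 4.06. limma gave a log2 fold change of 1.95 (SE 0.414, 95% interval 0.999 to 2.89, adjusted p 0.662) and DESeq2 gave 2.02 (adjusted p 0.00987). The authors' deposited table gives mt-Tc an adjusted p of 0.00954.

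For both genes irinotecan replicate 1 was the highest library, and for both the other 2 irinotecan libraries still lay above every control. Without that library the log2 fold change was 1.204 for mt-Tp (SE 0.255) and 1.62 for mt-Tc (SE 0.377), with limma adjusted p-values of 0.1197 and 0.149; limma and edgeR then each called 2 genes higher (0.0137%) and 0 lower, neither of them mitochondrial. DESeq2 without it gave mt-Tp an adjusted p of 0.00392 and mt-Tc one of 0.0487, with 77 genes higher (0.583%) and 80 lower (0.606%) of 13206. Over all settings tried the log2 fold change was 1.19 to 1.80 for mt-Tp and 1.61 to 2.24 for mt-Tc, and adjusted p-values ran up to 0.990. With library weights, of which irinotecan replicate 1 had the lowest (0.127), limma adjusted p-values were 0.0375 for mt-Tp and 0.0464 for mt-Tc. That fit called 30 genes higher and 22 lower of 14639. The calls thus rest on the test used and on how the libraries are weighted.

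The other light-strand transfer RNA genes differed among themselves. mt-Tn, for asparagine, had 27.7, 18.3 and 19.3 normalized counts in the irinotecan libraries and 5.61, 15.7 and 15.5 in the controls, which did not overlap by a narrow margin (log2 fold change 0.88, SE 0.515, limma adjusted p 0.743). Without control replicate 1 its log2 fold change was 0.43, and without irinotecan replicate 1 it was 0.70. mt-Te, for glutamate, had 57.5, 288 and 232 in the irinotecan libraries and 108, 164 and 164 in the controls. Its groups overlapped because irinotecan replicate 1 was the lowest of the 6, and its log2 fold change was 0.14 (SE 0.548) with all libraries and 0.86 (SE 0.219, limma adjusted p 0.193) without that one. mt-Ty, for tyrosine, lies 2 bases from mt-Tc on the same strand and had 1.03, 14.4 and 6.08 in the irinotecan libraries and 9.35, 45.0 and 10.7 in the controls, with a log2 fold change of -1.55 (SE 0.900, limma adjusted p 0.743) that was -0.76 without irinotecan replicate 1. Without control replicate 2, its highest library, mt-Ty did not pass the filter. In the fits that held both, the neighbours mt-Tc and mt-Ty were on opposite sides of 0. mt-Ta, for alanine and also in this cluster, did not pass the filter and had at most 8 reads in any library.

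Among the heavy-strand transfer RNA genes, mt-Tl1, a leucine transfer RNA gene that follows mt-Rnr2 directly, had 75.0, 45.3 and 54.7 normalized counts in the irinotecan libraries and 48.6, 41.8 and 73.6 in the controls (log2 fold change 0.10, SE 0.328). mt-Ts2, for serine, had 132 in irinotecan replicate 1 and 9.63 and 1.01 in replicates 2 and 3, against 9.35, 3.14 and 5.81 in the controls, so that 1 library carried its log2 fold change of 1.098 (SE 1.34). Without that library mt-Ts2 did not pass the filter. mt-Tl2, the other leucine gene, had 22.6, 16.4 and 0 in the irinotecan libraries and 28.98, 14.6 and 32.9 in the controls (log2 fold change -1.76, SE 1.12). The library at 0 carried much of this value, which was -0.31 without irinotecan replicate 3 and -0.97 by edgeR. The other 5 heavy-strand genes in the table did not pass. mt-Tt, for threonine, which lies end to end with mt-Tp on the opposite strand, had 10 reads in irinotecan replicate 1 and 0 in the other 5 libraries, and mt-Th had 22, 6 and 0 reads in the irinotecan libraries and 8 to 11 in the controls.

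**Figure D3:**
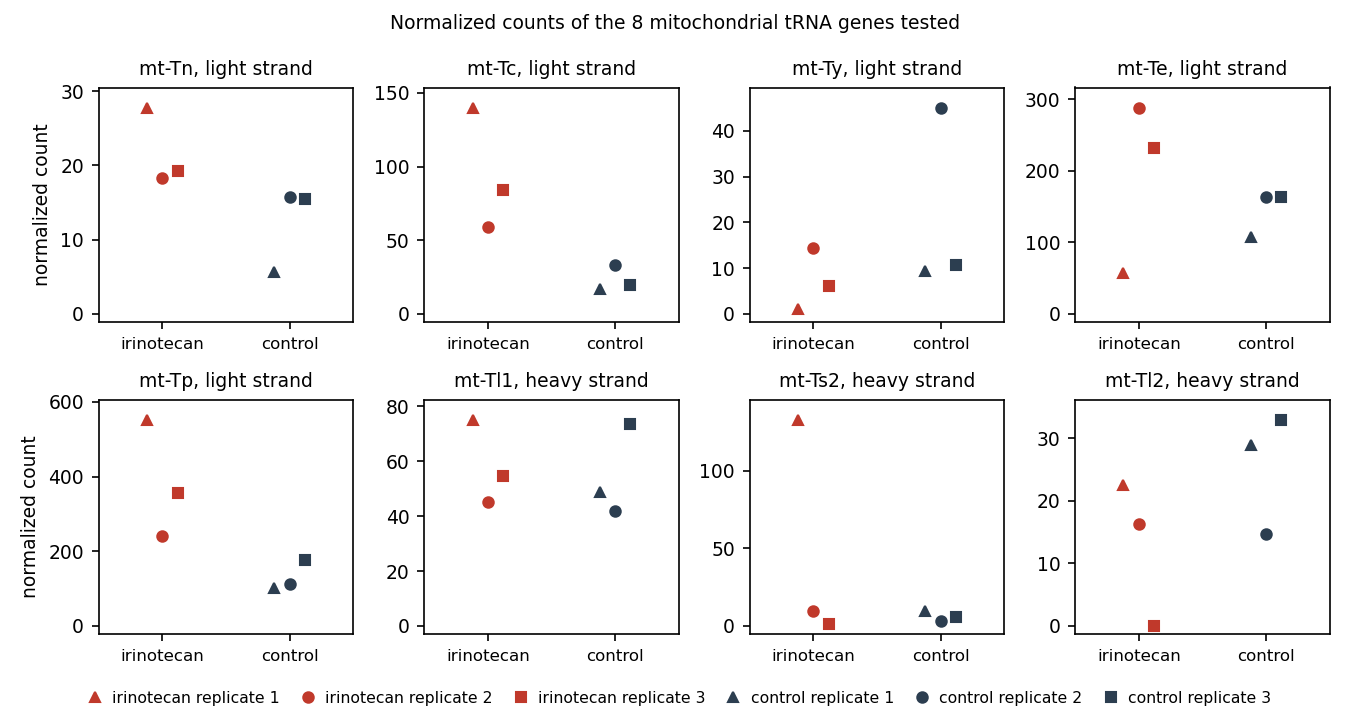
Normalized counts of the 8 mitochondrial tRNA genes that passed the filter, 1 panel per gene with its own axis, irinotecan libraries left and control libraries right. mt-Tp, mt-Tc and mt-Tn have every irinotecan library above every control, while mt-Ts2 is high in irinotecan replicate 1 only (132 against at most 9.63 in the others).

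The 3 genes without overlap, mt-Tp, mt-Tc and mt-Tn, were 3 of the 22 tested and all were higher with irinotecan, and 0 of the 22 were lower without overlap. Of all genes tested, 6.68% had every irinotecan library above every control and 7.89% every irinotecan library below. Of the 5 light-strand transfer RNA genes tested 4 had a positive log2 fold change, and 2 of the 3 on the heavy strand did. These positive genes include mt-Ts2, which passed the filter only with irinotecan replicate 1. They also include mt-Te (0.14) and mt-Tl1 (0.10), whose sign changed in some settings. The median log2 fold change of the 8 transfer RNA genes was 0.51 with 6 positive (0.24 without control replicate 1), beside -0.014 and 48.2% positive for all genes tested. Since the genes were chosen with these results known, these counts describe the class and are no test of it.

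The ribosomal RNA genes had no such pattern. mt-Rnr1 had 3717, 3972 and 3081 normalized counts in the irinotecan libraries and 2807, 3648 and 3715 in the controls, with a log2 fold change of 0.09 (SE 0.164, 95% interval -0.29 to 0.46). mt-Rnr2 had 12982, 5756 and 3763 in the irinotecan libraries and 4419, 4136 and 5494 in the controls, with a log2 fold change of 0.50 (SE 0.390). Irinotecan replicate 1 alone carried that difference, and without it the log2 fold change of mt-Rnr2 was 0.0019 (SE 0.171). The 2 RNAs come from 1 precursor with mt-Tv between them, and the ratio of normalized counts, mt-Rnr2 over mt-Rnr1, was 3.49 in irinotecan replicate 1, against 1.45 and 1.22 in the other irinotecan libraries and 1.13 to 1.57 in the controls.

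The protein-coding genes were described by respiratory complex. Of the 6 complex I genes other than mt-Nd3, mt-Nd5 had 59239, 83741 and 57283 normalized counts in the irinotecan libraries and 58185, 62938 and 78753 in the controls, and its log2 fold change was -0.0071 (SE 0.226, 95% interval -0.52 to 0.51). mt-Nd6, the only protein-coding gene of the light strand, had 22603, 31328 and 17795 in the irinotecan libraries and 20117, 22260 and 29760 in the controls (log2 fold change -0.027, SE 0.244). Both genes therefore had groups that overlapped throughout. mt-Nd1, mt-Nd2, mt-Nd4l and mt-Nd4 had log2 fold changes of -0.28, -0.11, -0.07 and -0.42 (SE 0.273 to 0.441). In these 4 genes irinotecan replicate 1 was the lowest library. mt-Nd3, with 27.7, 23.1 and 27.4 normalized counts in the irinotecan libraries and 26.2, 13.6 and 24.2 in the controls, was near the filter (log2 fold change 0.32, SE 0.394).

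mt-Cytb, the only mitochondrial gene of complex III, had 24581 normalized counts in irinotecan replicate 1 and 131045 and 104501 in replicates 2 and 3, against 98646, 101919 and 109009 in the controls. Its log2 fold change was -0.57 (SE 0.553), and without irinotecan replicate 1 it was 0.18 (SE 0.162). mt-Nd5 and mt-Cytb are the last 2 protein-coding genes of the heavy-strand precursor, and the ratio of normalized counts, mt-Nd5 over mt-Cytb, was 2.41 in irinotecan replicate 1 and 0.548 to 0.722 in the other 5 libraries. This gene pair thus showed the deviation of that library within 1 precursor.

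In complex IV, mt-Co1 had 135018, 239547 and 199662 normalized counts in the irinotecan libraries and 222989, 214941 and 240981 in the controls (log2 fold change -0.28, SE 0.274). mt-Co2 had 269, 1374 and 964 in the irinotecan libraries and 1309, 1096 and 1984 in the controls (log2 fold change -0.997, SE 0.537), and irinotecan replicate 1 was again far below the others. mt-Co3 had 2129.6, 626 and 522 in the irinotecan libraries and 511, 424 and 596 in the controls (log2 fold change 0.81, SE 0.468), so in this gene the same library was far above the others. Without that library the log2 fold changes were -0.048, -0.30 and 0.18 for mt-Co1, mt-Co2 and mt-Co3. In complex V, mt-Atp6 had 393, 1339 and 705 in the irinotecan libraries and 939.5, 801 and 1469.9 in the controls (log2 fold change -0.52, SE 0.414). Its log2 fold change was -0.090 without irinotecan replicate 1 and -0.97 without irinotecan replicate 2. mt-Atp8 did not pass the filter, with at most 4 reads in any library.

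**Figure D4:**
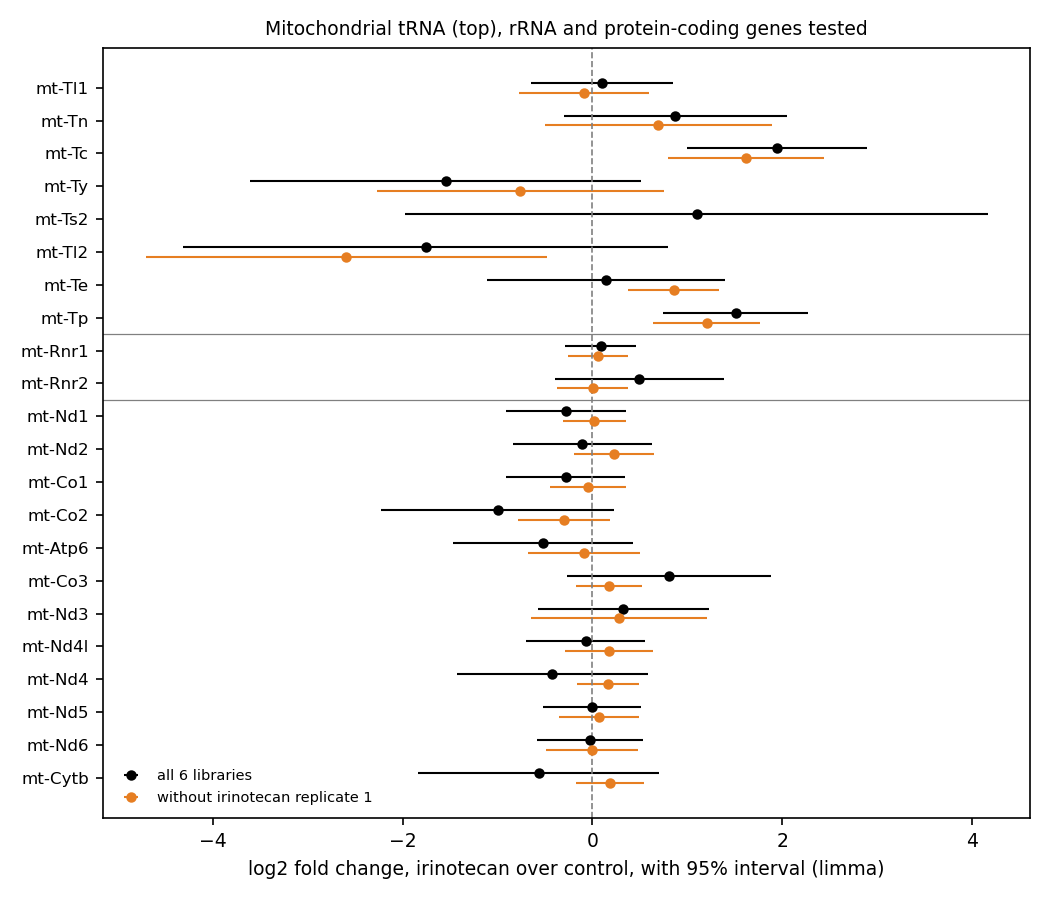
log2 fold change of irinotecan over control from limma for the 22 mitochondrial genes tested, with 95% intervals; black shows all 6 libraries and orange the fit without irinotecan replicate 1, in which mt-Ts2 did not pass the filter. The intervals of mt-Tp (0.75 to 2.27) and mt-Tc (0.999 to 2.89) lie above 0 in both fits, and 8 of the 12 protein-coding genes have positive values without that library, against 2 with it.

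Over the 12 protein-coding genes tested, the median log2 fold change was -0.19 with 2 positive and 10 negative, and without irinotecan replicate 1 it was 0.12 with 8 positive and 4 negative. The direction of this class therefore rests on 1 library. For the transfer RNA genes the median was 0.51 with all libraries, 6 of the 8 being positive, and 0.70 without that one, 4 of the 7 that then passed being positive. Irinotecan replicate 1 was the lowest of the 6 libraries in 10 of the 22 genes and the highest in 8, and of all genes tested it was the lowest in 36.8% and the highest in 34.2%. By class it was the lowest in 8 of the 12 protein-coding genes and the highest in 5 of the 8 transfer RNA genes. Its value divided by the mean of the other 5 ranged from 0.225 for mt-Cytb to 0.932 for mt-Nd6 among the 7 protein-coding genes not wholly inside the copied stretch.

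Where a mitochondrial gene and its chromosome 1 copy have the same bases, the share of the pair's reads that the table gives to the mitochondrial gene was examined. For mt-Co2 it was 56.3%, 58.0% and 53.7% in irinotecan replicates 1, 2 and 3, against 62.8%, 62.3% and 66.5% in the controls. For mt-Atp6 it was 61.0% to 62.7% with irinotecan and 58.1% to 59.9% in controls, and for mt-Nd4l it was 60.4% to 69.5% and 52.4% to 55.7%. The irinotecan libraries thus lay below the controls for mt-Co2 and above them for mt-Atp6 and mt-Nd4l. In the other 4 chromosome 1 pairs the groups overlapped. The 95% Wilson intervals of single libraries still overlapped between the groups for mt-Co2, mt-Atp6 and mt-Nd4l. For mt-Co2 they reached 60.8% in irinotecan replicate 1 and began at 59.9% in control replicate 2. For mt-Atp6 they began at 57.1% in irinotecan replicate 1 and reached 62.2% in control replicate 1. For mt-Nd4l they began at 53.5% in irinotecan replicate 2 and reached 63.4% in control replicate 2. How often such shares fail to overlap elsewhere in the table was not computed. For mt-Co3 the share was 84.9% in irinotecan replicate 1 (95% Wilson interval 83.4% to 86.3%), with 58.9% and 60.4% in the other irinotecan libraries and 56.9% to 59.2% in the controls. The high mt-Co3 value of that library was thus assigned to the mitochondrial gene in the counting, although equal sequences cannot show where those reads arose. The copy Gm28437 had 379, 436 and 342 normalized counts in the irinotecan libraries and 366, 322 and 411 in the controls. For mt-Nd3 the share was 17.2% to 31.4% with irinotecan and 16.5% to 20.3% in controls, and for mt-Nd4 and mt-Co1, which extend past the copied stretch, it was 99.0% to 99.6% and 99.9% to 99.95%. These shares carry no test, and copies of equal sequence that share reads make each single value uncertain.

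**Figure D5:**
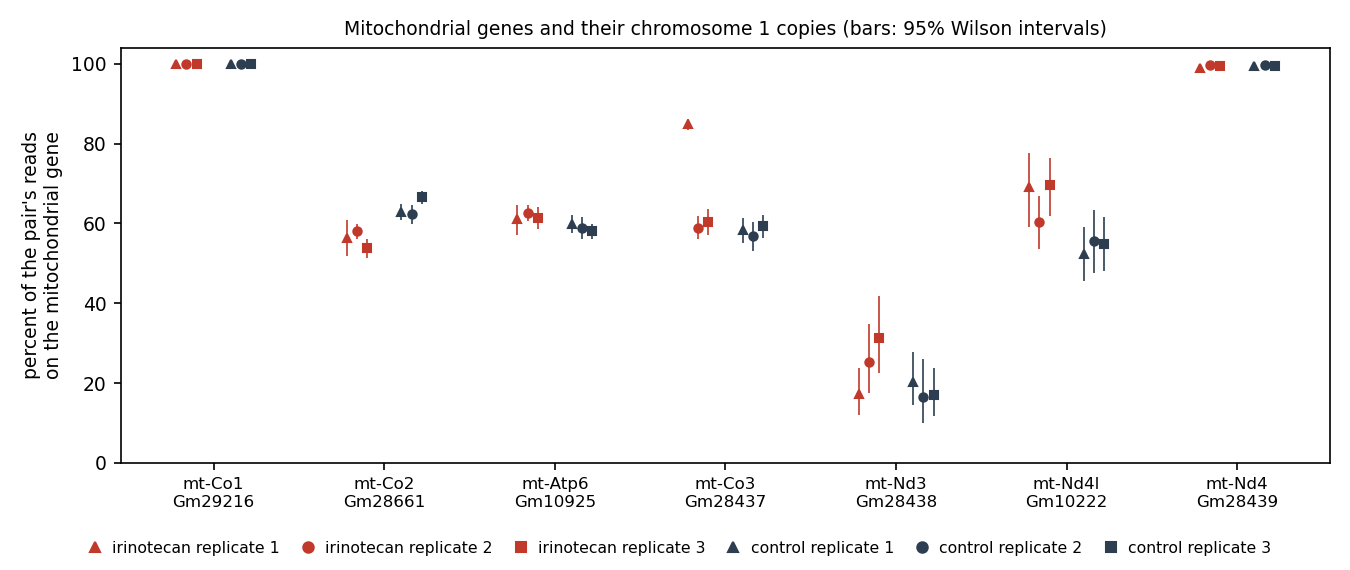
Percent of the reads on a mitochondrial gene and its chromosome 1 copy together that the table gives to the mitochondrial gene, for 7 pairs, with irinotecan libraries left, control libraries right and 95% Wilson intervals. The 5 genes inside the copied stretch lie between 16.5% and 84.9%, and mt-Co1 and mt-Nd4 lie between 99.0% and 99.95%.

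Nuclear genes that act on the mitochondrial genome and its transcripts were read from the same fit. Top1mt had 184 ± 18.3 normalized counts with irinotecan and 187 ± 10.6 in controls (log2 fold change -0.023, 95% interval -0.43 to 0.39). Top1, the nuclear target of the drug, had 2343 ± 262 and 2306 ± 111 (log2 fold change 0.018, 95% interval -0.29 to 0.32). The mitochondrial RNA polymerase Polrmt had 501 ± 115 and 588 ± 29.4, and its partners Tfam and Tfb2m had log2 fold changes of -0.12 and -0.15. None of these passed the limma threshold, with adjusted p-values of at least 0.746. Without irinotecan replicate 1 their log2 fold changes were 0.061 for Top1mt, 0.11 for Top1, -0.051 for Polrmt, -0.17 for Tfam and -0.074 for Tfb2m, so that the sign of Top1mt turned. Lrpprc, whose product binds and stabilizes mitochondrial messengers, had 2678 ± 542 with irinotecan and 2287 ± 137 in controls, while its partner Slirp did not pass the filter. Lars2, the mitochondrial leucyl-tRNA synthetase, had 2385, 1659.5 and 1147 in the irinotecan libraries and 1586, 1365 and 1266 in the controls (log2 fold change 0.24, SE 0.249). Without irinotecan replicate 1 the log2 fold change was 0.052 for Lrpprc and -0.020 for Lars2, where it was 0.21 and 0.24 with all libraries.

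By limma and by DESeq2 alike, 0 genes passed the threshold in either direction in each of 5 lists of such genes, whose background is the 0% and the 0.193% and 0.124% given above. The 28 genes of mitochondrial DNA transcription and maintenance had a median log2 fold change of -0.049 (12 positive), the 22 tested genes of mitochondrial RNA processing, stability and decay -0.0060 (11 positive), and the 20 mitochondrial aminoacyl-tRNA synthetases 0.07 (13 positive), beside -0.014 over all genes. The 77 mitochondrial ribosomal proteins had a median of -0.19 (65 negative) and the 73 nuclear-encoded subunits of complexes I, III, IV and V one of -0.15 (51 negative). Without irinotecan replicate 1 these 2 medians were -0.0098 and 0.041, so that library set both. The smallest unadjusted p in these lists belonged to Atp5j2, a subunit of ATP synthase, with 998 ± 50.02 normalized counts with irinotecan and 687 ± 69.7 in controls (log2 fold change 0.54, SE 0.138, limma adjusted p 0.743), and Ndufb3 of complex I, at 235 ± 13.5 and 174 ± 16.5, was also in the direction of higher values. In the other direction, Tbrg4, whose product takes part in mitochondrial RNA processing, had 881 ± 41.3 and 1096 ± 55.1 (log2 fold change -0.31, limma adjusted p 0.743), and Mrps23 of the mitochondrial ribosome had 283 ± 9.74 and 369 ± 33.7. Of 11 RNAs without a usual poly(A) tail that were listed to compare with the transfer RNAs, 2 were in the table and 0 passed the filter.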

How the data were processed

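RNA of 6 CT26 tumour samples, 3 per group, was sequenced. The submitters' processing notes name CASAVA, fastp, HISAT2 2.0.5, featureCounts 1.5.0-p3, DESeq2 1.20.0 and the build GRCm38 (mm10), without their roles; the sources used here do not give the annotation release or the strand and multi-mapping settings. The authors deposited a table of 25251 genes with a normalized signal per library, made by dividing read counts by 1 factor per library, as the deposited values show. In each library 100% of them were whole multiples of the worth of 1 read (tolerance 1e-06), which gave back the whole reads. The same table gives log2 fold changes by the authors, with their deposited p-values, per the file headers.

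With no raw counts deposited, the planned substitute was used, limma 3.58.1 (R 4.3.3) on log2(normalized count + 1) with a trended empirical Bayes variance, group as the only term and a mean of at least 10; p-values were adjusted by Benjamini-Hochberg over all genes tested. Alternatives were edgeR 4.0.16 and DESeq2 1.42.0 on the recovered reads, other scalings, pseudocounts and filters, library weights, a GC and length correction, the replicate number as a block, and leaving out each library. Chosen after seeing the data were edgeR and DESeq2 without irinotecan replicate 1, and summing each gene with its chromosome 1 copy. All mitochondrial genes were named or counted; nuclear genes were a fixed panel, the 2 of each list with the smallest unadjusted p, and nuclear copies. The mitochondrial genes and the lists were chosen with earlier results of these data known. The limma, edgeR (TMM) and DESeq2 fits with all libraries were run on simulated counts with known changes. Besides these changes and random draws, the simulated libraries differed in depth only, so none stood apart like irinotecan replicate 1. The other settings were not simulated. Sequences came from GENCODE M21, and copies were compared by alignment with Biopython 1.88 and by shared words of 100 bases.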

Additional observations from a re-analysis of the deposited data

How the results depend on the processing

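Against the 0 genes called by limma, library weights called 30 genes higher and 22 lower, DESeq2 28 higher and 18 lower, and DESeq2 without irinotecan replicate 1 called 77 higher and 80 lower, each with 2 mitochondrial genes, mt-Tp and mt-Tc, among the higher ones. edgeR without that library called 2 higher and 0 lower, none of them mitochondrial, and limma called 0 to 2 higher with 1 library left out. With the replicate number as a block limma called 0 higher and 0 lower and left the log2 fold changes at 1.51 for mt-Tp (adjusted p 0.689) and 1.95 for mt-Tc (adjusted p 0.905). Deviations of same-numbered libraries had correlations of -0.11, -0.0087 and -0.21, and those of differently numbered libraries -0.050 to 0.16. These values show no pairing by number, but with so few libraries per group they cannot exclude it. Of 427 values of the 22 mitochondrial genes under the alternatives, 387 kept their sign and their side of the threshold. Another 6 crossed it (mt-Tp and mt-Tc, 3 each) and 34 changed sign without being called, while 10 genes kept their sign throughout. edgeR and DESeq2 without irinotecan replicate 1 entered these counts for mt-Tp and mt-Tc only. In each of those fits 9 of the 12 protein-coding genes were positive, against 2 by limma with all libraries. Sign changes of other genes in those fits are not counted. The cause of these changes was not tested. The sign changed with library weights for mt-Ts2 (-0.29), mt-Tl1 (-0.059), mt-Nd1 (0.0074), mt-Nd2 (0.27), mt-Nd4 (0.15), mt-Nd4l (0.15), mt-Nd5 (0.12), mt-Nd6 (0.080) and mt-Cytb (0.13). It changed for mt-Nd5 with edgeR (TMM 0.0039, RLE 0.0081), DESeq2 (0.0028) and quantile normalization (0.0011), for mt-Nd6 with quantile normalization (0.022), for mt-Te (-0.081) and mt-Rnr1 (-0.045) once a trend on GC and length was taken out, and for mt-Nd3 (-0.082) with its copy added. With 1 library left out, log2 fold changes ran from -0.51 to 0.020 for mt-Nd1, -0.41 to 0.23 for mt-Nd2, -0.81 to 0.16 for mt-Nd4, -0.23 to 0.18 for mt-Nd4l, -0.18 to 0.12 for mt-Nd5, -0.24 to 0.17 for mt-Nd6, -1.02 to 0.18 for mt-Cytb, -0.044 to 0.19 for mt-Rnr1, -0.30 to 0.86 for mt-Te and -0.092 to 0.33 for mt-Tl1. The transfer RNA median, 0.51 with all libraries, was 0.82 with a mean of at least 50, which leaves 4 genes, 0.34 with a pseudocount of 10, 0.35 with the GC and length trend taken out, 0.24 without control replicate 1 and 0.24 by DESeq2 without irinotecan replicate 1. Depth limits the transfer RNA class, with 373 to 1024 reads per library, and mt-Atp8 and mt-Nd3, with at most 4 and 28 reads.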
